A study of Homo sapiens with 20 samples.

Results

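Sites of open chromatin that were listed in cells carrying the empty vector (EV), and in no other cells of the study, numbered 12398. They were found by joining peaks that overlapped by 1 bp or more across 7 peak lists into 372133 sites and keeping those with an EV peak and no peak of the other 6 lists. These EV-only sites made up 3.33% of all sites and 9.79% of the 126597 sites with an EV peak. Each of them was a single EV peak, and together they took 7.25% of the 171102 EV peaks (Wilson 95% interval 7.12 to 7.37). They were small. They covered 1333518 of the 70596855 bases under EV peaks, or 1.89%, and held 0.381% of the summed area of those peaks.

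The cells were SW872, an established human liposarcoma line. Pooled stable lines had been made by retroviral transduction and drug selection with EV or with vectors for TAZ4SA, YAP5SA, CAMTA1, TFE3, TAZ-CAMTA1 or YAP-TFE3. The EV lines carried the vector with no insert, so all 7 groups shared the cell line and the vector backbone. Every group had 3 ATAC-seq libraries apart from TFE3, with 2, for 20 in all. The third EV library is titled a redo, with no word on what was repeated, and the YAP-TFE3 libraries are titled as carrying Yap5SA in the fusion.

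ATAC-seq uses a transposase that inserts adapters where DNA is not wrapped tightly, so that reads pile up over promoters, enhancers and other open regions. TAZ and YAP are coactivators of the Hippo pathway that reach DNA through TEAD factors. TAZ4SA and YAP5SA lack serines through which LATS kinases restrain them, CAMTA1 and TFE3 are transcription factors, and the fusions join TAZ or YAP to the C-terminal portions of CAMTA1 or TFE3. The EV list is the baseline against which sites opened by these proteins would be read. Its private sites are those where a peak was listed at baseline and under none of the expressed proteins.

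The files hold 1 peak list per vector and no value per library. There was therefore no spread between replicates to set a difference against, and no test was made. Read depth is not given in the lists and was not analysed here. The intervals given for shares cover counting error only, and vector, depth and the particular libraries cannot be told apart. Peak numbers ran from 152702 (TAZ4SA) to 236893 (TAZ-CAMTA1), and only TAZ4SA and TFE3 had fewer than EV. Every list ended at an area under the curve of 20, so a site missing from a list had no listed peak there, which is not the same as closed chromatin. Coordinates are hg19, counted from 1. Genes and sequences at the sites were not analysed here.

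The area under the curve is a measure that the caller sums over a peak, on a scale not given in the lists, and it grows with both height and width. It ranged among EV-only sites from 20 to 329, with a median of 32.8 (95% interval of the median 32.5 to 33.2) and quartiles of 25.1 and 47.0. EV peaks shared with 1 to 5 other lists had a median area of 58.6 over 60661 peaks. The 98043 EV peaks at sites of all 7 lists had a median of 262. Weak peaks thus prevailed among the EV-only sites. An area of 100 or more was reached by 331 of them (2.67%), against 70.2% of the EV peaks at sites of all 7 lists, and 689 (5.56%) lay under 21, just above the floor, against 0.751%. The area took part in deciding which peaks were listed at all, so these values describe the sites and are no independent result.

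The summit −log10 p, a measure of height at the strongest base, gave the same order. It ran from 3.31 to 6.11 among EV-only sites, with a median of 3.94, and 90% of them, from the 5% to the 95% point, lay between 3.61 and 4.60. The medians were 4.24 for EV peaks shared with 1 to 5 other lists and 5.65 for those at sites of all 7 lists. A summit of 5 or more was found in 123 EV-only sites (0.992%) and in 61.8% of EV peaks at sites of all 7 lists.

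EV-only sites were also narrow. A wider peak meets a peak of another list more readily, so widths too describe the sites and are no independent result. Their median width was 91 bp, with quartiles of 76 and 103 bp and a range of 36 to 648 bp. Widths of 100 bp or less took 9152 of them (73.8%), against 41.0% of EV peaks shared with 1 to 5 other lists and 15.5% of those at sites of all 7 lists. The commonest single width was 100 bp, seen at 1073 sites (8.65%). Only 539 (4.35%) were wider than 250 bp, whereas 56.5% of EV peaks at sites of all 7 lists were. The summit lay between 0.329 and 0.662 of the peak's width at the quartiles of EV-only sites, and between 0.340 and 0.657 at sites of all 7 lists.

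Area, height and width rose step by step with the number of lists that shared an EV peak. The median area was 32.8 at EV-only sites, 39.1 with 2 lists, 43.3 with 3, 48.7 with 4, 59.5 with 5, 87.5 with 6 and 262 with all 7. The median width followed, from 91 bp to 98, 100, 102, 117, 150 and 312 bp. EV-only sites were the low end of this series, and the step from 1 list to 2 was small beside the step from 6 lists to 7. These measures bear on which peaks are listed or overlap, so the rise is partly built in and is no independent result.

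**Figure D1:**
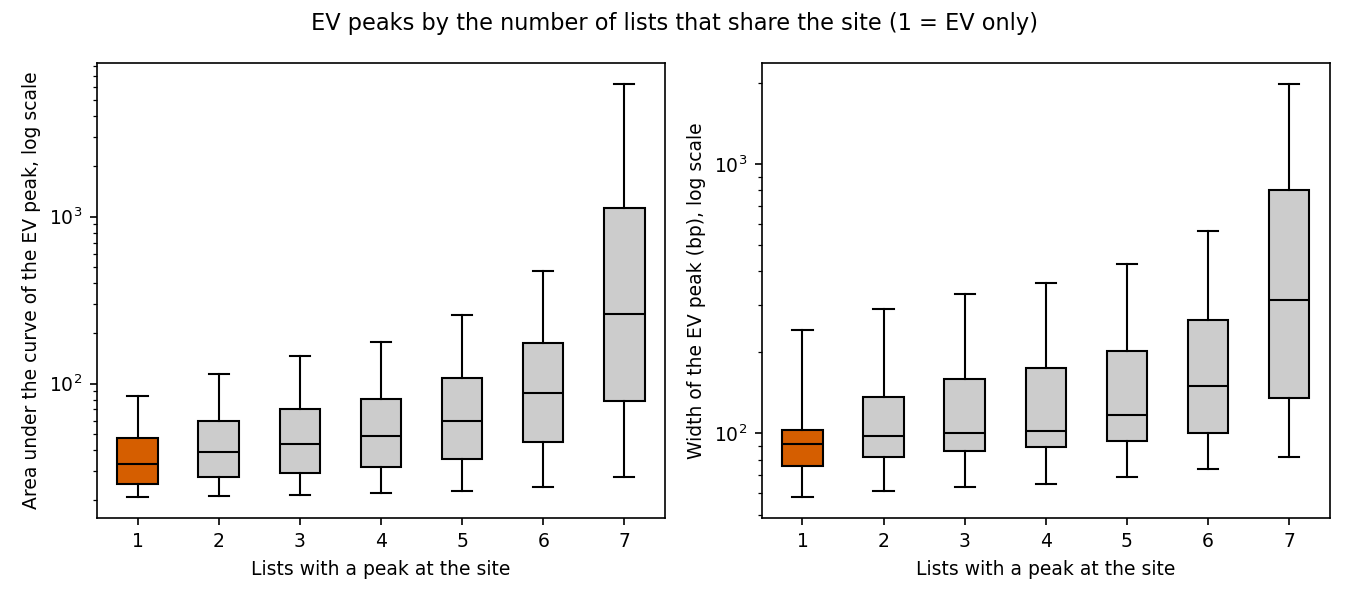
Area under the curve and width in bp of EV peaks (vertical axes, log scale) by the number of the 7 lists with a peak at the site (horizontal axis), with the median as a line, quartiles as a box and whiskers from the 5% to the 95% point. EV-only sites, at 1 list, have the lowest medians, an area of 32.8 and a width of 91 bp, against 262 and 312 bp at sites of all 7 lists.

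Private peaks were weak and narrow in every list. The share of peaks with no peak of another list at the site, computed as for EV (7.25%), was 12.0% for TAZ4SA, 17.0% for YAP5SA, 9.41% for CAMTA1, 14.7% for TAZ-CAMTA1, 12.7% for YAP-TFE3 and 0.973% for TFE3. EV thus ranked sixth of 7, above TFE3. The median area of private sites was 33.8 in TAZ4SA, 41.1 in YAP5SA, 36.2 in CAMTA1, 28.8 in TFE3, 39.3 in TAZ-CAMTA1 and 41.8 in YAP-TFE3, so only TFE3 lay below EV. Median widths were within 90 and 98 bp in those 6 lists. The upper ends differed more. The strongest private site reached an area of 2393 in YAP-TFE3, 2157 in YAP5SA, 1679 in TAZ4SA, 1080 in TAZ-CAMTA1 and 797 in CAMTA1, against 329 in EV and 142 in TFE3. Areas were compared as listed, with no scaling between lists. The smallest summit −log10 p of a list ran from 3.05 in TAZ-CAMTA1 to 3.38 in TAZ4SA.

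The share of EV peaks that were private was lower at each larger class of area. Of EV peaks with areas of 20 to 30, 22.7% were EV-only, and the share was 16.0% at 30 to 50, 7.03% at 50 to 100 and 1.20% at 100 to 200. Among the 61180 EV peaks of 200 or more, 26 were EV-only (0.0425%). In the lowest class the other lists had private shares of 32.5% (TAZ4SA), 41.6% (YAP5SA), 31.9% (CAMTA1), 43.8% (TAZ-CAMTA1), 37.7% (YAP-TFE3) and 5.20% (TFE3). EV peaks just above the floor were thus matched by a peak elsewhere more often than those of every list but TFE3. Areas were again not scaled between lists, so the same class may differ in strength from list to list.

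The rule turns on 1 bp of overlap. Just inside it were 16 EV-only sites that touched a peak of another list without a shared base (median area 36.1, median width 125.5 bp), and 141 lay within 10 bp of one (median area 37.6, median width 99 bp). Just outside it were 22 EV peaks whose largest overlap with another list was 1 bp (median area 27.6, median width 94 bp) and 197 with an overlap of 1 to 10 bp (median area 31.8, median width 95 bp).

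The EV-only sites with the largest areas were spread over several chromosomes. The first lay on chromosome 4 from 8286076 to 8286438, with an area of 329 and a summit −log10 p of 5.45. Its nearest peak of another list, in TAZ-CAMTA1, was 373 bp away, and an EV peak shared with other lists was 213 bp away. The second, on chromosome 5 from 564691 to 565165 (area 285), had a TAZ4SA peak 42 bp away, while peaks of the other 5 lists were 965 to 2416 bp away. On chromosome 7, the site from 152579372 to 152579872 (area 281) stood more alone, with a CAMTA1 peak 1833 bp away and the next shared EV peak at 11301 bp. A site on chromosome 5 from 64381544 to 64381944 (area 275) had peaks of all 6 other lists within 207 to 432 bp, and a site of all 7 lists began 250 bp away.

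The fifth by area had the tallest summit. It lay on chromosome 14 from 19722534 to 19722709, with an area of 267 over 176 bp and a −log10 p of 6.11, and the nearest other peak, in TAZ4SA, was 795 bp away. A wide, low site on chromosome 16 from 32348195 to 32348783 (area 264, −log10 p 4.38) had a YAP5SA peak 27 bp away. The site on chromosome 11 from 134402331 to 134402771 (area 254) touched a YAP-TFE3 peak with no base in common, and is private by the overlap rule alone. Chromosome 13 held the next pair. The site from 102655568 to 102655913 (area 241) had TAZ4SA and YAP5SA peaks 786 and 1237 bp away, but the nearest TAZ-CAMTA1, YAP-TFE3 and TFE3 peaks were 29155, 30313 and 47808 bp away. The site from 98899696 to 98900157 (area 237) had a YAP5SA peak 8 bp away. The tenth, on chromosome 12 from 157043 to 157403 (area 236), was 198 bp from a TAZ4SA peak.

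By summit −log10 p, the 4 sites after the one on chromosome 14 were on chromosomes 5 and 13. They lay on chromosome 5 from 63815475 to 63815767 (6.05), on chromosome 13 from 60208807 to 60208946 (5.89), on chromosome 5 from 549734 to 550024 (5.84) and on chromosome 13 from 60779415 to 60779567 (5.82). The widest were again mostly there. The widest of all, 648 bp on chromosome 5 from 133034321 to 133034968, was 2491 bp from the nearest peak of another list. The next were 642 bp on chromosome 13 from 97590564 to 97591205, 638 bp on chromosome 7 from 158900763 to 158901400, 609 bp on chromosome 5 from 130997255 to 130997863, and 605 bp on chromosome 5 from 10113848 to 10114452. Of these 19 sites at the top of any of the 3 rankings, 13 had a summit of 5 or more.

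Chromosomes differed widely in the share of their EV peaks that were EV-only. Chromosome 13 had the highest, 22.1% (1554 of 7035 peaks, interval 21.1 to 23.1), followed by chromosome 5 with 14.3% (2709 of 18953, 13.8 to 14.8) and chromosome 20 with 9.12% (760 of 8332, 8.52 to 9.76). The lowest were chromosome 10 with 1.86% (75 of 4034, 1.49 to 2.32), chromosome 19 with 2.61% (128 of 4908, 2.20 to 3.09) and chromosome X with 2.90% (100 of 3451, 2.39 to 3.51). Chromosomes 5 and 13 together held 4263 EV-only sites, 34.4% of the total, but 15.2% of all EV peaks. The share was 16.4% on this pair and 5.61% on all other chromosomes and contigs, a ratio of 2.93.

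The density of all EV peaks did not follow the same order. EV-only sites per Mb numbered 15.0 on chromosome 5, 13.5 on chromosome 13 and 12.1 on chromosome 20, against 0.553 on chromosome 10 and 0.644 on X. Lengths ran from the first base of a chromosome to its last peak, with stretches that hold no peak counted in. How far the order of chromosomes 5, 13 and 20 depends on this was not tested. All EV peaks per Mb numbered 132 on chromosome 20, 105 on chromosome 5, 86.4 on chromosome 11, 83.0 on chromosome 19 and 61.1 on chromosome 13. Chromosome 19 thus had more EV peaks per Mb than chromosome 13 but fewer EV-only sites, 2.17 per Mb. The part of peak density in these shares was not tested. On unplaced contigs 54 of 334 EV peaks were EV-only (16.2%, 12.6 to 20.5), over 13 contigs.

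The lists divided over this pair of chromosomes. On chromosome 13 the private share was 27.1% for TAZ4SA and 25.2% for YAP5SA, next to 22.1% for EV, but 10.3% for CAMTA1, 12.1% for TAZ-CAMTA1, 14.2% for YAP-TFE3 and 1.47% for TFE3. On chromosome 5 it was 22.4% for TAZ4SA and 22.9% for YAP5SA, next to 14.3% for EV, and 10.3% for CAMTA1, 14.3% for TAZ-CAMTA1, 12.2% for YAP-TFE3 and 0.968% for TFE3. Set against the rest of the genome, the ratio for the pair was 2.93 for EV, 2.41 for TAZ4SA, 1.47 for YAP5SA, 1.13 for TFE3, 1.11 for CAMTA1, 0.996 for YAP-TFE3 and 0.930 for TAZ-CAMTA1. A site private to one list cannot be private to another, so these are different sites on the same chromosomes.

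**Figure D2:**
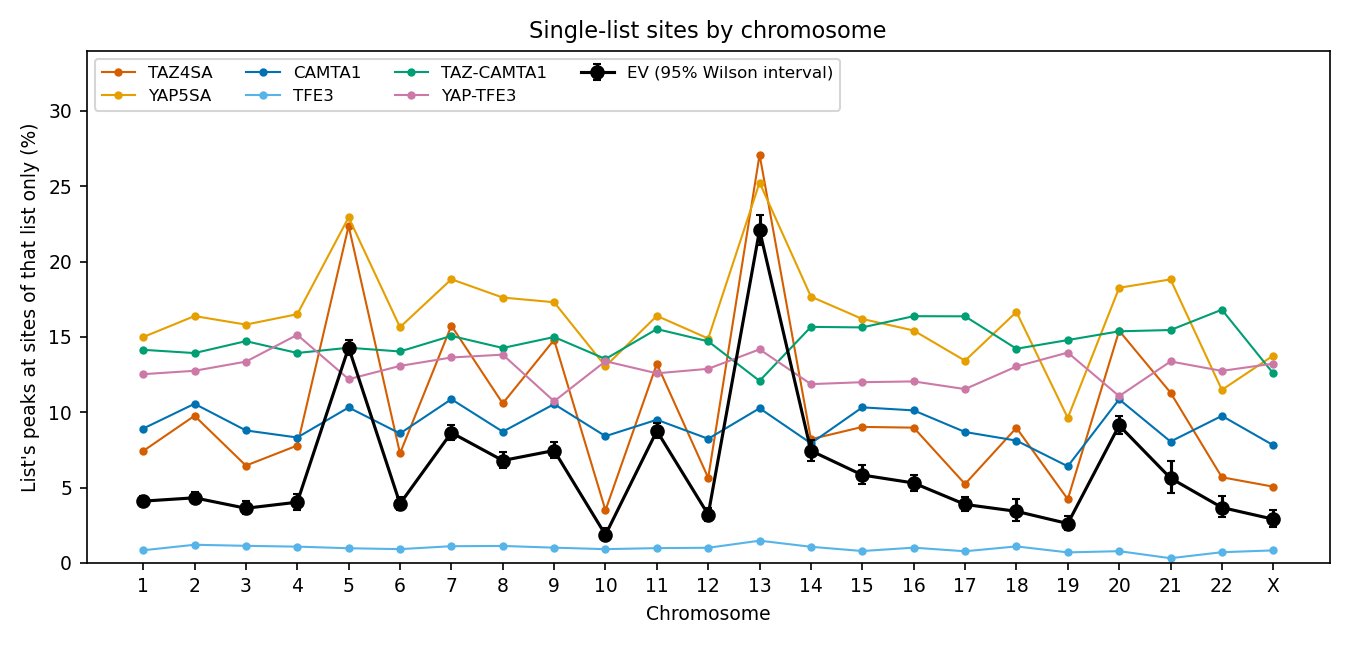
Percent of a list's peaks with no peak of the other 6 lists at the site (vertical axis) on each autosome and X (horizontal axis), with EV in black with Wilson 95% intervals and the other lists in colours, the lines serving only to join a list's points. EV rises to 22.1% on chromosome 13 and 14.3% on chromosome 5, TAZ4SA reaches 27.1% and 22.4% there, and CAMTA1 stays at 10.3% on both.

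The excess on chromosomes 13 and 5 was also seen among EV peaks of like area. In the lowest class, areas of 20 to 30, 44.1% of EV peaks on chromosome 13 were EV-only (41.3 to 46.8), 34.9% on chromosome 5 and 19.2% elsewhere. At areas of 30 to 50 the shares were 37.3%, 26.5% and 12.9%, and at 50 to 100 they were 21.9%, 13.9% and 5.14%. At 100 to 200 they were 6.19%, 3.08% and 0.712%. The gap between chromosomes therefore widened in relative terms as peaks grew. Conversely, chromosomes 5 and 13 held 31.6% of EV-only sites in the lowest class, 33.9%, 39.4% and 49.5% in the next 3, and 42.3% of the 26 sites of 200 or more. Of all EV peaks, chromosomes 5 and 13 had 3139 and 1262 of 23020 in the lowest class, and 3613 and 1524 of 28128 at 30 to 50. They had 4048 and 1646 of 33286 at 50 to 100, and 2794 and 1050 of 25488 at 100 to 200. At 200 or more they had 5359 and 1553 of 61180.

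In the lowest class the other lists were again divided. The TAZ4SA share was 49.8% on chromosome 13, 46.2% on chromosome 5 and 28.7% elsewhere, and the YAP5SA share 49.9%, 49.7% and 39.9%. For CAMTA1 (28.8%, 30.9% and 32.1%), TAZ-CAMTA1 (32.5%, 38.3% and 44.9%) and YAP-TFE3 (34.8%, 34.6% and 38.1%) the values on this pair were below those elsewhere, with intervals that overlapped for CAMTA1 and, on chromosome 13, for YAP-TFE3. TFE3 fell on neither side, with 7.49% on chromosome 13 (5.33 to 10.4), 4.74% on chromosome 5 and 5.18% elsewhere.

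**Figure D3:**
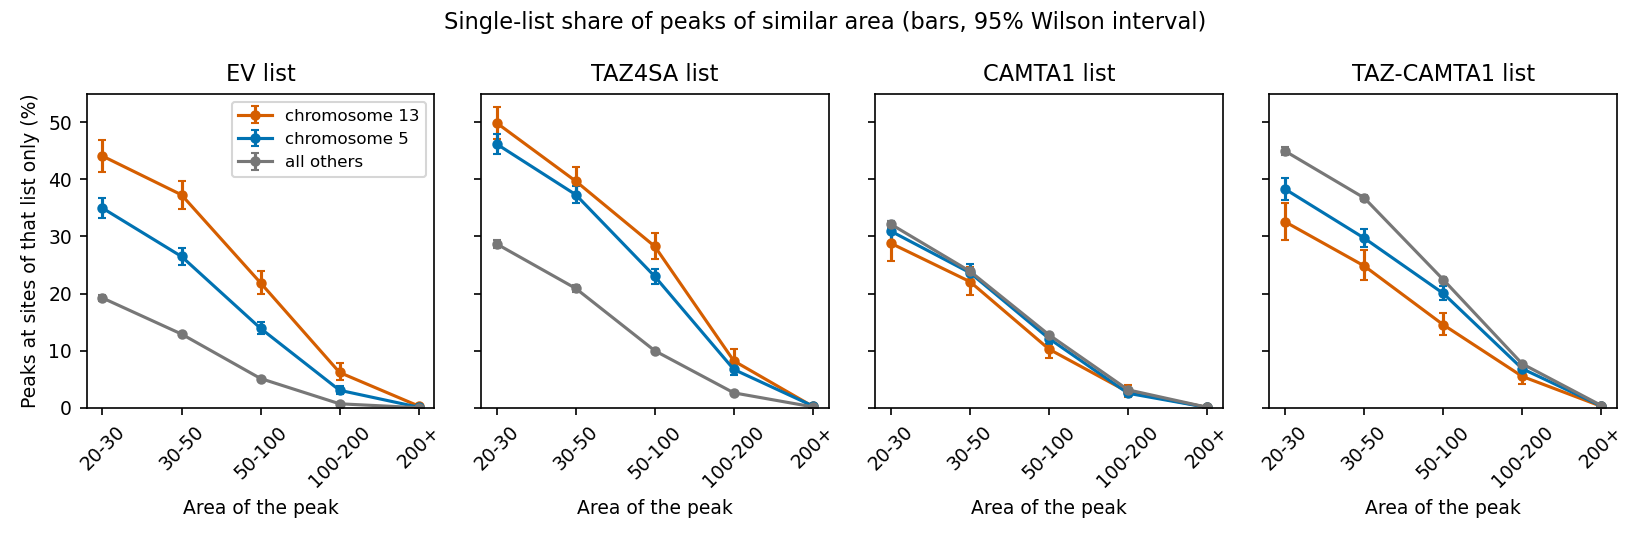
Percent of peaks private to their list (vertical axis, bars are Wilson 95% intervals) by class of area under the curve (horizontal axis), for chromosome 13, chromosome 5 and all others, in a panel each for the EV, TAZ4SA, CAMTA1 and TAZ-CAMTA1 lists. In the EV panel chromosome 13 falls from 44.1% at areas of 20 to 30 to 6.19% at 100 to 200 and the other chromosomes from 19.2% to 0.712%, while in the TAZ-CAMTA1 panel the other chromosomes lie highest, at 44.9% in the lowest class.

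EV-only sites were crowded along chromosomes. Of 6203 bins of 500 kb, 2744 (44.2%) held at least 1, and 3459 held none, of which 1137 had no EV peak at all. The mean was 1.99 sites a bin and the variance 14.7 times the mean, with up to 84 sites in a bin. By the variance EV-only sites did not stand out, since it was 13.1 times the mean for TAZ4SA-only sites, 13.2 for shared EV peaks with an area under 50 and 40.7 for all shared EV peaks. The 311 fullest bins, 5% of all, each held 9 or more and together held 6161 of the 12344 sites on assembled chromosomes (49.9%). For EV peaks shared with other lists the fullest 5% of bins held 24.3%, and for shared EV peaks with an area under 50 they held 27.7%. Private sites of the other lists gave 40.8% for TAZ4SA, 25.6% for CAMTA1, 25.03% for TAZ-CAMTA1, 24.8% for YAP5SA and 21.6% for YAP-TFE3. The TFE3 value, 42.9%, rests on 1520 sites, of which any bin held at most 6. The share in the fullest bins also depends on how many sites a class has. Shared EV peaks had a mean of 25.5 a bin, and those with an area under 50 had 6.67. The part of these numbers in the contrast with EV-only sites was not tested.

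Of the 311 fullest bins, 93 lay on chromosome 5 (25.7% of its bins) and 38 on chromosome 13 (16.5%), so that this pair held 131 of them (42.1%). Chromosome 7 had 39, chromosome 11 had 30, chromosome 20 had 25 (19.8% of its bins) and chromosome 9 had 19. Chromosomes 10, 18 and Y had none. Bins without any peak were counted among the bins of a chromosome. The fullest bins of EV-only sites were often those of TAZ4SA-only sites (195 bins, 62.7% of each set of 311) and YAP5SA-only sites (175, 56.3%), less so those of CAMTA1 (147, 47.3%), TAZ-CAMTA1 (112, 36.0%), YAP-TFE3 (83, 26.7%) and TFE3 (57, 18.3%). They also shared 161 (51.8%) with the bins fullest in shared EV peaks, so crowding of EV peaks of every kind overlapped with crowding of private ones, and its part was not tested.

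Neighbouring full bins formed 146 runs. Of these, 87 were single bins, and 16 of 5 bins or more took 113 bins and 3037 EV-only sites. The longest was 20 bins on chromosome 13 from 94500001 to 104500000. It held 960 EV-only sites, 7.74% of all of them, out of 3900 EV peaks (24.6%). In the same 10 Mb the private shares were 26.6% for TAZ4SA (868 sites) and 24.3% for YAP5SA (926 sites), but 10.4% for CAMTA1 (276), 10.7% for TAZ-CAMTA1 (299), 13.4% for YAP-TFE3 (399) and 1.73% for TFE3 (26). The next 7 in length, and in EV-only sites where lengths were equal, had 7 or 8 bins and lay near chromosome ends or on chromosome 5. They were on chromosome 7 from 1000001 to 5000000 (122 of 1005 EV peaks private, 12.1%), chromosome 5 from 1 to 3500000 (236 of 1472, 16.0%), from 4500001 to 8000000 (131 of 799) and from 134500001 to 138000000 (148 of 910), chromosome 20 from 59500001 to 63000000 (123 of 1371), chromosome 9 from 138000001 to 141500000 (119 of 1145) and chromosome 1 from 500001 to 4000000 (101 of 772).

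The fullest single bin was on chromosome 5 from 63500001 to 64000000, where 84 of 251 EV peaks were EV-only (33.5%). In the same bin the private sites were 70 of 194 peaks for TAZ4SA, 50 of 199 for YAP5SA and 24 of 135 for CAMTA1. They were 7 of 97 for YAP-TFE3, 6 of 109 for TAZ-CAMTA1 and 1 of 52 for TFE3. The next, on chromosome 5 from 130000001 to 130500000, had 82 of 216 (38.0%). Beside these were 69 of 192 for TAZ4SA, 53 of 179 for YAP5SA and 20 of 115 for CAMTA1. TAZ-CAMTA1 had 6 of 95, YAP-TFE3 5 of 91 and TFE3 0 of 38. On chromosome 13 the bin from 102500001 to 103000000 had the largest share of the top 5, with 64 of 139 EV peaks private (46.0%). Private there were also 57 of 127 YAP5SA peaks, 39 of 105 for TAZ4SA and 15 of 62 for CAMTA1. YAP-TFE3 had 13 of 65, TAZ-CAMTA1 7 of 54 and TFE3 1 of 25. The bin from 101000001 to 101500000 had 70 of 208 (33.7%), with 47 of 144 for TAZ4SA, 49 of 184 for YAP5SA and 11 of 105 for CAMTA1. YAP-TFE3 had 17 of 116, TAZ-CAMTA1 7 of 120 and TFE3 1 of 51. The bin from 100000001 to 100500000 had 72 of 349 (20.6%), with 53 of 335 for YAP5SA and 28 of 229 for TAZ4SA. TAZ-CAMTA1 had 32 of 307, YAP-TFE3 29 of 287, CAMTA1 19 of 265 and TFE3 2 of 139.

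EV signal was also described at sites that all 7 lists shared. The bins were chosen by EV-only sites of the same lists, and the area also decides which peaks are listed, so a lean toward EV in them is partly built in and is no independent result. For each such site the log2 ratio of the EV area to that of another list was taken, less the median of the ratio over all 60372 sites, so that 0 marks the typical site. In the 95 bins with 20 or more EV-only sites (3372 sites, 27.3% of the total), this centred ratio had a median over 2821 shared sites of 0.44 against YAP-TFE3 and TFE3, 0.43 against CAMTA1 and 0.37 against TAZ-CAMTA1. It was 0.22 against YAP5SA and 0.15 against TAZ4SA. In bins without EV-only sites it lay between -0.11 and -0.04 for all 6. The spread over sites was wide, with quartiles of -0.15 and 0.89 against CAMTA1 and -0.55 and 1.03 against TAZ4SA.

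Crowded bins were also compared with other bins of the same chromosome. On chromosome 13, the 766 shared sites in bins with 20 or more EV-only sites had a centred ratio of 0.60 against CAMTA1, 0.59 against TAZ-CAMTA1, 0.56 against TFE3 and 0.49 against YAP-TFE3, and 0.25 and 0.08 against YAP5SA and TAZ4SA. The other 712 shared sites of that chromosome gave -0.06, 0.08, -0.02, -0.11, -0.01 and -0.01 in the same order. On chromosome 5 the 966 shared sites in crowded bins had 0.44 against CAMTA1, 0.43 against TAZ-CAMTA1, 0.46 against TFE3, 0.49 against YAP-TFE3, 0.21 against YAP5SA and 0.17 against TAZ4SA. Part of the shift remained in its other bins, where 4138 sites gave 0.06, 0.10, 0.07, 0.15, -0.01 and -0.08 in the same order. Crowded bins of the remaining chromosomes, with 1089 shared sites, had 0.30 against CAMTA1, 0.37 against YAP-TFE3 and 0.16 against TAZ4SA. In the 10-Mb run on chromosome 13, the ratio over 655 sites was 0.57 against CAMTA1, 0.55 against TAZ-CAMTA1 and 0.08 against TAZ4SA. The shorter runs were mixed. Against CAMTA1 all 7 of the next runs named above were above 0, from 0.07 on chromosome 7 to 0.51 at the start of chromosome 5. Against TAZ-CAMTA1 they ran from -0.22 on chromosome 9 and -0.16 on chromosome 7 to 0.50 at the start of chromosome 5, with 4 of the 7 below 0. Peaks near one another share local signal, so these sites are not independent.

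Bins with more EV-only sites were richer in EV peaks, with a median of 4 EV peaks in bins without EV-only sites, 31 with 1 to 4 of them, 61 with 5 to 9, 89 with 10 to 19 and 163 with 20 or more. Their private share was 5.20% in bins with 1 to 4 EV-only sites, then 10.04%, 13.3% and 21.2%, an order the grouping itself favours. The TAZ4SA-only share went from 7.30% in bins without EV-only sites to 23.6% in those with 20 or more. The YAP5SA-only share went from 16.3% to 21.6%, with a low of 15.99% at 1 to 4. CAMTA1 went from 8.31% to 11.5%, while YAP-TFE3 went down from 14.4% to 10.5%. TAZ-CAMTA1 took no single direction, with 13.6%, 15.0%, 16.1%, 15.6% and 12.2% over the 5 groups. Nor did TFE3, with 0.955%, 0.912%, 1.14%, 1.01% and 1.12%.

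**Figure D4:**
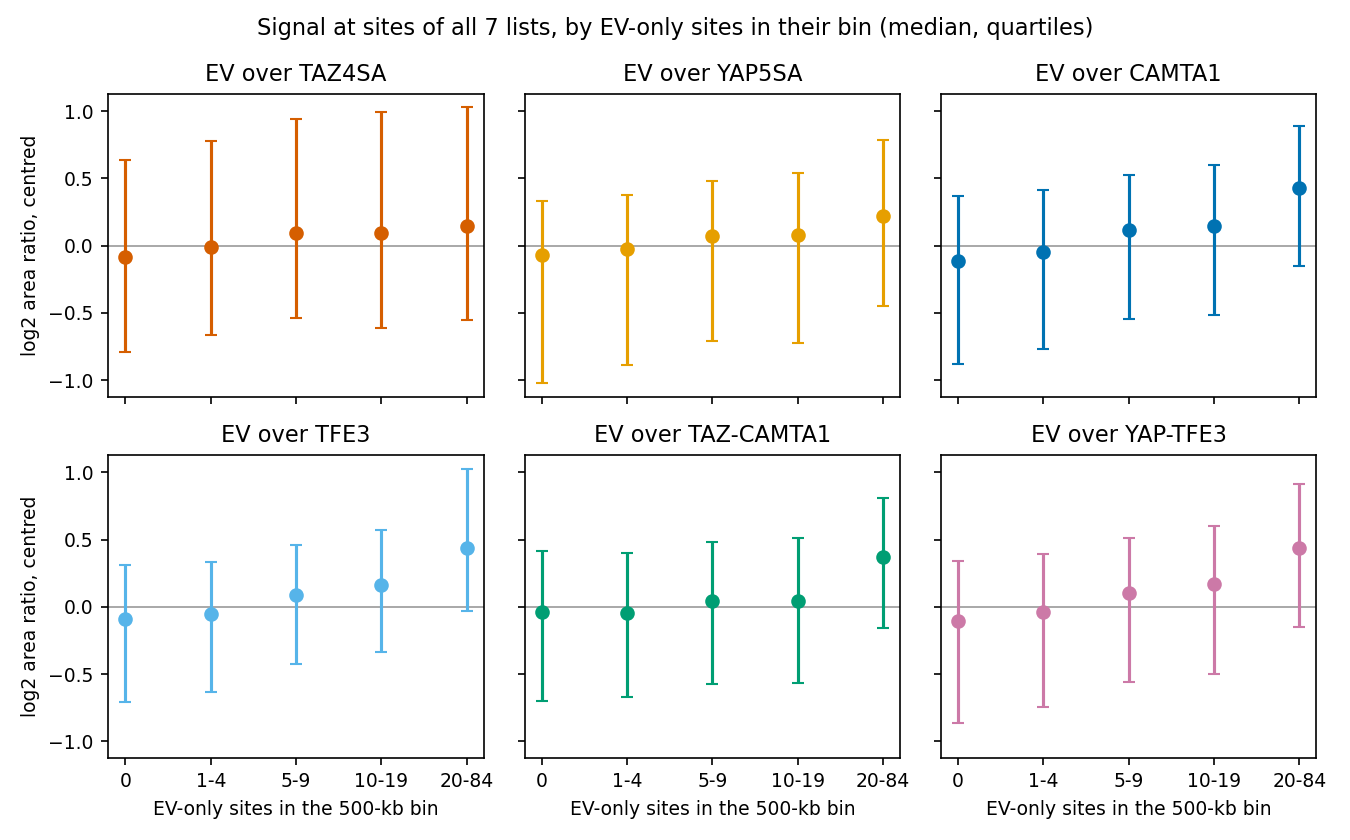
Log2 ratio of the EV area to that of each other list at sites of all 7 lists, centred on the median of all such sites (vertical axis, points are medians and bars quartiles, 1 panel per list), for 500-kb bins grouped by their number of EV-only sites (horizontal axis). In bins with 20 or more EV-only sites the medians are 0.43 against CAMTA1 and 0.44 against YAP-TFE3 but 0.15 against TAZ4SA, and in bins with none all 6 lie between -0.11 and -0.04.

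Outside chromosomes 5 and 13, EV-only sites gathered toward chromosome ends. This was looked at after the positions of the runs had been seen. Of the 8081 EV-only sites on the other assembled chromosomes, 2445 (30.3%, interval 29.3 to 31.3) lay within 5 Mb of the first or last peak of their chromosome. The share was 17.4% for shared EV peaks and 19.4% for shared EV peaks with an area under 50. It was 22.8% for TAZ4SA-only sites, 16.8% for CAMTA1, 16.2% for TAZ-CAMTA1, 16.1% for YAP5SA, 13.7% for YAP-TFE3 and 11.8% for TFE3. With chromosomes 5 and 13 put back, 22.7% of EV-only sites lay near an end. The share was then 16.4% for shared EV peaks and 18.0% for those with an area under 50. For private sites it was 17.6% in TAZ4SA, 16.1% in CAMTA1, 15.4% in TAZ-CAMTA1, 14.4% in YAP5SA, 13.3% in YAP-TFE3 and 11.4% in TFE3. An end was taken as the first or last peak, which need not be the physical end of the chromosome.

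Most EV-only sites lay close to a peak of another list. The nearest was at a median of 352.5 bp (95% interval of the median 343 to 363), with quartiles of 137 and 1221 bp. It was within 100 bp at 1756 sites (14.2%), within 500 bp at 7138 (57.6%) and within 1 kb at 8924 (71.98%). Peaks of all 6 other lists lay within 1 kb of 2061 EV-only sites (16.6%), and 3474 (28.0%) had none so near. The nearest list was TAZ-CAMTA1 at 3252 sites (26.2%), YAP5SA at 2810 (22.7%), TAZ4SA at 2026 (16.3%), YAP-TFE3 at 2005 (16.2%), CAMTA1 at 2001 (16.1%) and TFE3 at 304 (2.45%). TAZ-CAMTA1 has the most peaks, but YAP-TFE3, with 235795, was nearest about as often as TAZ4SA, with 152702. Where distances were equal, TAZ4SA was taken first and YAP-TFE3 last, and such ties were not counted. The median distance to a YAP-TFE3 peak was shorter, 1341.5 bp against 1894.5 bp for TAZ4SA. The part of list length in how often a list was nearest was not tested.

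Remote sites were few. Only 427 EV-only sites (3.44%) were more than 10 kb from a peak of any other list, and the farthest was 894623 bp away. They had a median area of 31.9, close to the 32.8 of all EV-only sites, and 99 of them (23.2%) were on chromosomes 5 and 13, against 34.4% of all EV-only sites. Remote sites were thus less often on this pair than EV-only sites at large, though more often than the 15.2% of all EV peaks there. EV peaks of all kinds had a larger median area, 103, and remote sites were not compared with EV peaks of like area. The share more than 5 kb from any other list was 8.39% at areas of 20 to 30. It was 2.95% at 100 to 200 and 0% at 200 or more. Gaps also depend on the local density of peaks, whose part was not tested.

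**Figure D5:**
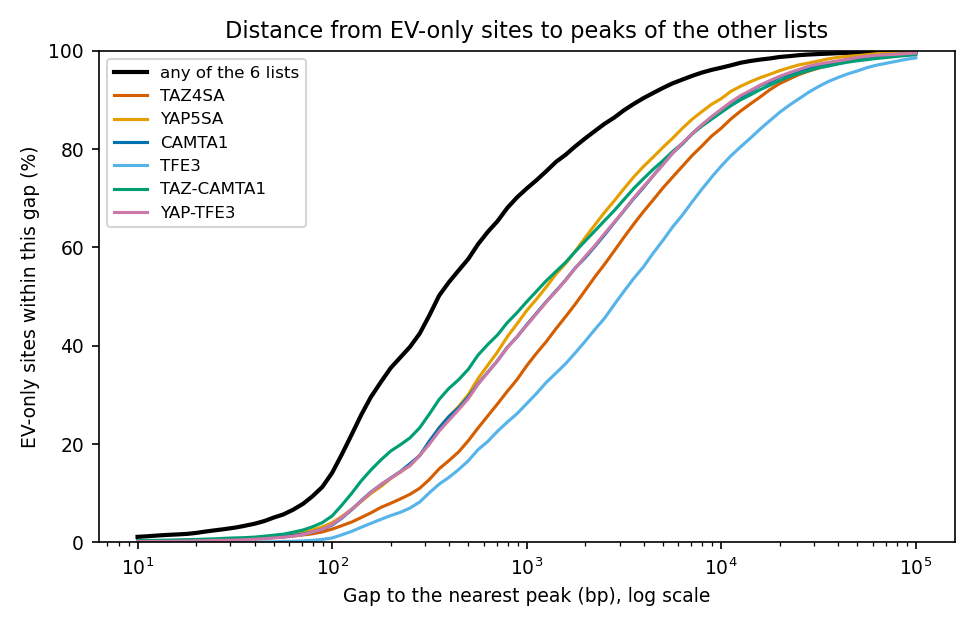
Percent of EV-only sites (vertical axis) whose nearest peak of another list lies within a given gap in bp (horizontal axis, log scale), for any of the 6 lists in black and for each list in colour. Within 1 kb, 71.98% have a peak of any other list, 48.9% a TAZ-CAMTA1 peak, 47.2% a YAP5SA peak, 35.9% a TAZ4SA peak and 28.2% a TFE3 peak.

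Distances to other EV peaks depend on how many there are, and shared EV peaks outnumber EV-only sites (158424 against 12344 on assembled chromosomes). The nearest EV peak shared with another list was at a median of 1489 bp, and within 1 kb at 42.7% of sites. The nearest other EV-only site was at a median of 12212 bp, and within 1 kb at 17.3%. A site of all 7 lists was at a median of 6365 bp, and a broad one of 2 kb or more at 43375 bp, with 4.87% of EV-only sites inside 1 kb of a broad one. Another EV peak of any kind lay within 500 bp of 37.7% of EV-only sites, 47.7% of EV peaks shared with 1 to 5 lists and 69.7% of EV peaks at sites of all 7 lists. Peaks of 1 list were never closer than 101 bp, so a site could not have a nearer EV neighbour.

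The count of EV-only sites depended on what counted as shared. When a gap of up to 500 bp between peaks was allowed, 5260 sites were left (3.07% of EV peaks), and when both peaks had to overlap by 50%, 43821 EV peaks qualified (25.6%). Where EV peaks alone had to reach a summit of 5, 123 sites were left (0.171%).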

How the data were processed

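ATAC-seq was performed on 20 libraries of SW872 cells. According to the study's methods, reads were trimmed, aligned to hg19 and passed to Genrich for peak calling, with duplicates, blacklisted regions and the mitochondrial genome left out. The submitters' processing notes name Bowtie 0.12.2 and a mouse build, which the human coordinates contradict. The signal the authors deposited for each peak is the area under the caller's curve. The summit −log10 p was deposited too. A deposited score per peak and the −log10 q were not used. The methods describe calling on every replicate and a later consensus set, whereas the files hold 1 list per vector. How libraries were combined into a list is not given in the sources used here.

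Peaks overlapping by 1 bp or more were merged across lists with pandas 2.3.3 and numpy 2.4.6, and the sites were checked against bedtools 2.31.1 and on simulated peaks. Shares carry Wilson 95% intervals (scipy 1.17.1), and medians carry order-statistic intervals. Bins were 500 kb, up to the last peak of each chromosome. Named sites were the 10 largest by area and the 5 highest by −log10 p and by width, and named chromosomes the 3 highest and 3 lowest shares. Groups came from sample titles. The alternatives were stricter peaks, equal peak numbers, autosomes, other overlap rules, summit windows, other bin widths and leaving out 1 list. The sites and all rules were chosen with earlier results of these data known.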

Additional observations from a re-analysis of the deposited data

How the results depend on the processing

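Up to 5 values were recomputed in each setting: the share of EV peaks that are EV-only (7.25%), their median area (32.8), their share in the fullest 5% of bins (49.9%), their share on chromosomes 5 and 13 (34.4%) and the median distance to a peak of another list (352.5 bp). They are given in this order, leaving out those that moved by less than their 95% interval. A summit −log10 p of at least 4 in every list gave 6.20%, 52.0, 52.7% and, for distance, 466 bp, and one of at least 5 gave 1.67%, 152, 71.0%, 39.7% and 1173 bp. The share in the fullest bins depends on the number of sites, 1191 at the stricter cut, so 71.0% cannot be set directly against 49.9%. With 5 asked of EV peaks alone the values were 0.171%, 124, 100%, 47.2% and 298 bp, where 123 sites cannot fill 5% of the bins. Equal numbers of peaks (152702) by −log10 p gave 9.26%, 42.5, 32.1% on the chromosome pair and 508 bp, and by area 8.88%, 43.7, 32.6% and 518 bp. An overlap of 50% gave 25.6%, 42.8, 35.3%, 21.3% and 0 bp, a gap of up to 500 bp 3.07%, 31.9, 36.8% on the pair and 1581 bp, and summit windows reaching 250 bp either way 4.36%, 34.2, 44.6%, 32.1% and 593 bp. The distances under the first 2 of these rules are partly set by the rule, since 50% lets overlapping peaks count as EV-only and the gap removes distances up to 500 bp. Of the 19 named sites, 6 stayed EV-only with the gap and 10 with summit windows. All 19 had to stay with the 50% overlap, as a peak with no shared base cannot reach it. Autosomes alone gave 48.6% in the fullest bins, bins of 100 kb 60.5% and bins of 1 Mb 46.7%. Without the TAZ4SA list the values were 7.93%, 33.3, 51.2%, 35.6% and 408 bp, and without YAP5SA 8.28%, 33.3, 51.0%, 35.3% and 408 bp. Without CAMTA1 they were 8.05% and 33.2, without TAZ-CAMTA1 9.61%, 33.8, 45.7% and 30.7%, and without YAP-TFE3 8.23%, 48.3% in the fullest bins and 33.2% on the pair. Without TFE3 none moved beyond its interval. An alternative chosen after seeing the data, touching peaks as shared, moved none, and another, without chromosomes 5 and 13, gave 5.61%, 32.1, 44.7% and 332 bp. In every setting with all chromosomes the share on chromosomes 5 and 13 stayed above 15.2%, their share of the unfiltered EV peaks. Where EV peaks were filtered, the share of the kept EV peaks on this pair was not computed. No paired analysis was possible because each vector has 1 list without replicate values, and leaving out each library was not run for the same reason. Depth is unknown, so a site absent from a list may have been below its detection limit.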
